A study of Mus musculus with 8 samples.

Results

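Megabases of the mouse genome that hold few genes and few listed CpGs were examined for DNA methylation after knockdown of Tet3 in neural progenitor cells (NPCs). The autosomes were divided into fixed windows of 1000000 bases, and a window was chosen when 10 to 80 CpGs of the deposited tables fell in it, counted by position alone. This chose 648 of the 2411 autosomal windows with a listed CpG (26.9%), called sparse megabases here, and they held 25997 of the 757812 listed CpGs (3.43%). The other windows were 27 with fewer than 10 listed CpGs, 1249 with 81 to 500 and 487 with more than 500, and the last 2 classes together are called denser megabases.

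The NPCs were differentiated with retinoic acid from A2lox.cre mouse ES cells, a male line with 1 shRNA cassette inserted at a doxycycline-inducible locus. All cells received doxycycline (2 µg/ml, 5 days), so that the control and the knockdown differ by the shRNA, which was non-targeting (shScr) or directed against Tet3 (shTet3). Each shRNA had 2 replicates. Each replicate had a bisulphite library (BS, which reads 5mC and 5hmC together) and an oxidised one (oxBS, which reads 5mC alone), 8 libraries in all. The 2 libraries that share an shRNA and a replicate number were taken as parts of the same DNA (100 ng). The number of ES clones behind each shRNA is not given in the sources used here, and nothing in the labels says whether the replicates are separate differentiations, so p-values measure the spread between these samples, which may be technical. The tables hold no expression values, so neither the level of Tet3 nor NPC markers could be checked.

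TET enzymes, of which TET3 is one, oxidise 5mC to 5hmC and further, a step towards loss of the methyl group, whereas DNMT enzymes add and copy 5mC. Gene-poor, AT-rich megabases usually replicate late and lie at the nuclear lamina, and their scattered CpGs are mostly methylated in somatic cells, although some cultured cells keep only partial methylation there. Reduced representation libraries cut DNA at CCGG and favour CpG islands, so that such megabases are read through a few fragments each.

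The DNA that carries these readings is shown by stretches of 120 bases (mm9, forward strand) with the most tested CpGs in the 3 sparse megabases with the largest fall of 5mC and in the 2 with the lowest 5mC in shScr. Capitals mark the CpGs that were tested. Only sparse megabases with at least 10 tested CpGs were ranked.
Fall 1, chr14:97560698-97560817: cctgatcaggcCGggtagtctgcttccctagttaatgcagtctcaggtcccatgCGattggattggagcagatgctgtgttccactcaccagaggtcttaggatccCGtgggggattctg
Fall 2, chr7:18965478-18965597: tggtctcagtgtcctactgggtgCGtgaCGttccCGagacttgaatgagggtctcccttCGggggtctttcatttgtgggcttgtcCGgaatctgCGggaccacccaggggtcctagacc
Fall 3, chr14:95241566-95241685: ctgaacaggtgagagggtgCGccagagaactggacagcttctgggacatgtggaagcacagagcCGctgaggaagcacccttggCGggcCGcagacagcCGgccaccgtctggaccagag
Low 1, chr12:23255433-23255552: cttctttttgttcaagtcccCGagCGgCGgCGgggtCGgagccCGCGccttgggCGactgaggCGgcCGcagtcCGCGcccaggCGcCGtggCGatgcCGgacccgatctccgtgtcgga
Low 2, chr8:20019827-20019946: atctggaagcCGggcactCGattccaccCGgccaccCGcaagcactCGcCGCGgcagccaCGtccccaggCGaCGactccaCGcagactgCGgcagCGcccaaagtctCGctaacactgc
The 3 stretches that fell hold 3, 6 and 5 tested CpGs at a GC content of 55%, 59.2% and 64.2%, and none lies in a protein-coding gene. The 2 stretches of low level hold 16 and 14 tested CpGs at 72.5% and 68.3% GC. The first lies outside protein-coding genes, 122322 bases from the nearest start of one, and the second overlaps 2610005L07Rik, which the annotation lists as a processed transcript.

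The 5mC level of the stretch Fall 1 was 51.4% and 62.2% in shScr replicates 1 and 2 and 29.5% and 23.5% in shTet3 replicates 1 and 2, the order used throughout. The BS libraries read the same 3 CpGs at 44.0% and 80.4% in shScr against 27.2% and 22.4% in shTet3, so both readings were lower in shTet3 without overlap. Fall 2 was read differently by the 2 kinds of library: oxBS gave 79.8% and 88.2% in shScr and 53.4% and 61.9% in shTet3, whereas BS gave 67.0% and 87.0% in shScr against 75.4% and 78.1% in shTet3, so the groups were apart in oxBS and overlapped in BS. Low 1 was nearly free of 5mC in each replicate, at 0.225% and 0.768% in shScr against 1.01% and 3.48% in shTet3.

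The label gene-poor was checked against the GENCODE vM1 annotation of mm9, which the choice of windows did not use. A sparse megabase overlapped a median of 1 protein-coding gene, against 7 in windows of 81 to 500 listed CpGs and 18 in windows of more than 500. No protein-coding gene lay in 180 of them (27.8%), compared with 2 and 1 windows of the denser classes. No protein-coding gene started in 236 (36.4%), compared with 9 and 1 windows. Protein-coding genes covered a median of 9.69% of their bases, against 41.1% and 57.9%. The median GC content was 38.0%, against 42.0% and 46.6%, and CCGG sites numbered a median of 363.5, against 584 and 1022. A minority went against the label, since 80 sparse megabases overlapped 6 or more protein-coding genes, up to 61. Of the 1512 genes counted in those 80, 735 (48.6%) were genes of odorant, vomeronasal or taste receptors, which form large tandem clusters, and these made up most of the genes in 29 windows.

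The listed CpGs themselves also differed in position. A share of 50.9% lay over 100 kb from the nearest start of a protein-coding transcript, against 9.65% and 2.25% in the denser classes, and 18.4% lay in a promoter (−1 kb to +0.5 kb), against 48.0% and 48.9%. The CpGs tested in a sparse megabase formed a median of 9 loci more than 500 bases apart, with 4 to 16 loci between the 5th and 95th percentiles. In 104 of 643 windows more than 50% of the tested CpGs fell in 1 locus, so that a window mean can rest on few fragments. Sparse megabases were found on all 19 autosomes, from 15.1% of the windows of chromosome 11 to 35.4% of those of chromosome 16. They formed 325 runs of adjacent windows, of which 182 were single windows and 75 were runs of 3 or more that held 330 windows.

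Depth was lower in sparse megabases. The libraries held 42516767 to 61865967 calls in all, of which 2.11 to 2.83% fell in sparse megabases, and the median coverage of a CpG there was 29 to 41, against 44 to 55 in denser megabases. The ratio of the 2 medians was lowest for shTet3 oxBS replicate 1 (0.600) and highest for shScr BS replicate 1 (0.830). In oxBS 21913 CpGs and in BS 21286 CpGs had 10 or more calls in each of the 4 libraries. At least 5 such CpGs were found in 643 and 645 of the 648 windows, and the others were not fitted. The part of the lower coverage in the values below was not tested.

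Sparse megabases carried more 5mC than denser megabases and were lower in shTet3. Mean 5mC over their 21913 tested CpGs stood at 40.7% and 53.8% in shScr against 34.2% and 31.2% after Tet3 KD. Both shTet3 replicates thus lay below both shScr replicates, and the shScr replicates lay far apart. The means were 47.2% ± 9.24 (SD, n = 2) and 32.7% ± 2.10 (SD, n = 2), a fall of 14.6 percentage points or 30.9% of the shScr level. The two-sided exact permutation test gave p = 0.333, the smallest value that 2 against 2 libraries allow. In denser megabases the same libraries read 26.8% and 31.6% in shScr against 22.4% and 22.7% in shTet3, so that the change was −6.66 points or −22.8%.

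**Figure D1:**
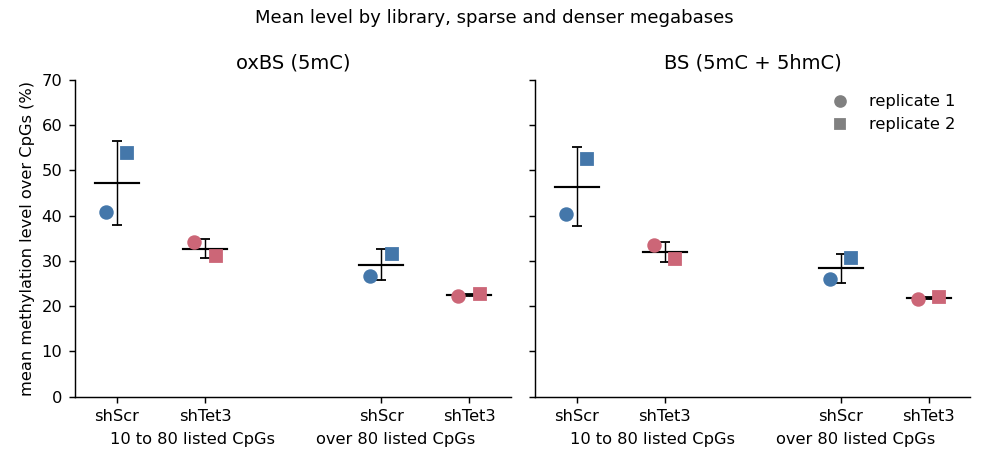
Mean methylation level over CpGs (vertical axis, %) in each library, for oxBS (left) and BS (right), in sparse and denser megabases. Circles are replicate 1, squares replicate 2, lines the mean and bars the SD (n = 2). The shScr replicates in sparse megabases are 13.1 points apart in oxBS, and both shTet3 replicates lie below both of them.

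The BS libraries gave nearly the same values as oxBS. Their mean level in sparse megabases was 40.3% and 52.6% in shScr and 33.6% and 30.5% in shTet3, a change of −14.4 points or −31.0% (two-sided exact permutation p = 0.333, the smallest possible). Across the 642 windows read by both, the change in oxBS and the change in BS had a correlation of 0.728 across windows, which are not independent replicates, and 640 windows were lower in both. The 2 kinds of library share their DNA, so BS is a second reading and not further replicates.

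The gap between the shScr replicates was itself larger in sparse megabases. shScr replicate 2 exceeded replicate 1 by 13.1 points there and by 4.8 points in denser megabases. It was the higher one in 633 of 643 sparse windows (98.4%), near the 97.8% of the denser windows. The shTet3 replicates went the other way in sparse megabases, since replicate 2 was 2.97 points below replicate 1 and was the higher one in only 144 windows (22.4%), against 60.5% of the denser windows. Both gaps were present in BS, which read the same DNA. Without shScr oxBS replicate 2 the change was −8.04 points (−19.7%), and without shScr oxBS replicate 1 it was −21.0 points (−39.3%). The size of the fall therefore rests on which shScr replicate is used, whereas its direction did not change.

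The level, the replicate gaps and the fall varied with the number of listed CpGs among the sparse megabases themselves. The 105 windows with 10 to 20 listed CpGs read 45.8% and 65.2% in shScr and 39.8% and 35.1% in shTet3, a change of −18.1 points. The 117 windows with 61 to 80 listed CpGs read 35.5% and 44.9% in shScr and 29.2% and 27.5% in shTet3, a change of −11.9 points. The gap between shScr replicates went from 19.5 to 9.36 points between these classes. The relative change varied less, from −32.6% to −29.5% within sparse megabases and to −21.7% in windows with more than 500 listed CpGs.

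**Figure D2:**
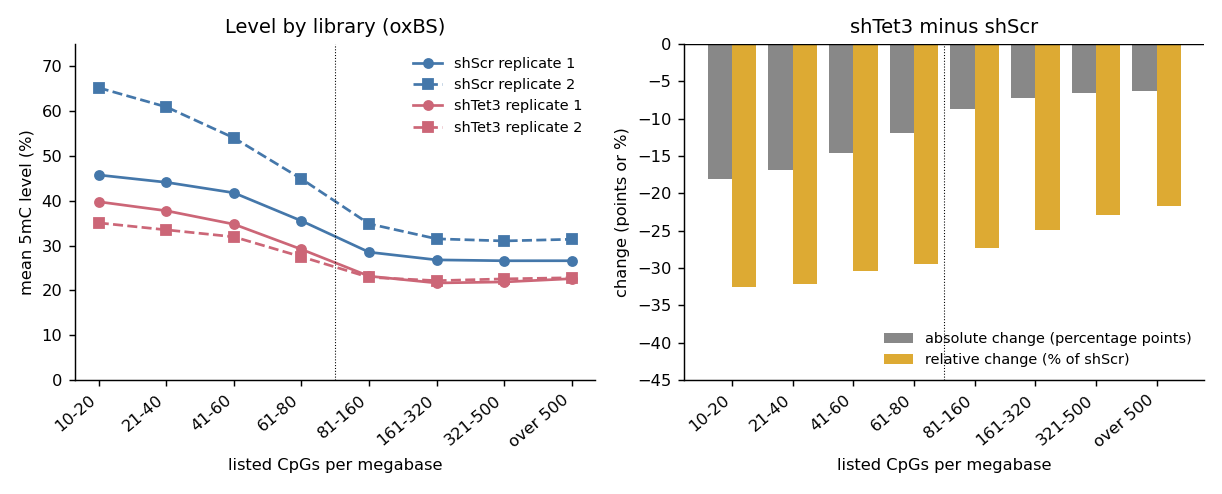
Mean 5mC level in each oxBS library (left, %) and the shTet3 minus shScr change (right, in percentage points and as % of the shScr level) by the number of listed CpGs per megabase. The dotted line separates sparse from denser megabases. All 4 libraries are higher in sparse than in denser megabases, shScr replicate 2 most of all (65.2% at 10 to 20 listed CpGs and 31.4% above 500).

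At the limits of the choice there was no step. The 14 windows with 78 to 80 listed CpGs had a median change of −7.53 points and the 10 windows with 81 to 83 had −9.16 points. At the lower limit, the 26 windows with 10 to 12 listed CpGs had a median change of −16.1 points and the 17 with 7 to 9 had −17.6 points.

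Gene content gave a less regular order. The 180 sparse megabases without a protein-coding gene read 48.4% and 67.2% in shScr and 41.8% and 36.6% in shTet3, a change of −18.6 points, and those with 1 or 2 genes changed by −13.9 points. Windows with 3 to 5 genes changed by −11.4 points, but the 80 windows with 6 or more genes changed by −15.2 points. The share of tested CpGs in promoters moved with this order, at 0%, 22.9%, 34.1% and 17.3%. Relative changes in the 4 classes were −32.2%, −31.4%, −27.9% and −30.2%.

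The fall was larger outside promoters. In sparse megabases, 4256 promoter CpGs read 9.49% and 10.02% in shScr against 6.97% and 6.79% in shTet3, so both groups were low and did not overlap. The 13475 CpGs outside genes and promoters read 48.8% and 66.0% in shScr and 41.5% and 37.3% in shTet3, a change of −18.0 points, and the 4182 CpGs of gene bodies changed by −15.4 points. The relative change was nearly the same in the 3 positions, at −29.5%, −31.4% and −29.3%. CpGs with 10 or more CpGs within 100 bases changed by −7.04 points and isolated ones by −20.3 points. At positions outside genes and promoters the change in denser megabases was −13.5 points (−25.9%), and over 100 kb from a gene start the 2 kinds of megabase read −18.5 and −16.7 points.

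Whether the sparse megabases fell more than the denser ones was then compared directly. The difference in the absolute change was −7.91 points (two-sided exact permutation p = 0.333 over 4 libraries, the smallest possible). The difference in the relative change was −8.02 percentage points of the shScr level (exact permutation p = 0.667). To set CpGs of like level side by side, CpGs were grouped in steps of 10 points by their mean level in the shScr BS libraries and the denser megabases were weighted to the levels of the sparse ones. So weighted, shScr read 40.2% and 53.2% in sparse and 42.0% and 51.4% in denser megabases, and shTet3 read 33.8% and 30.7% against 35.04% and 34.24%. The changes were −14.4 and −12.1 points, and their difference of −2.34 points was within the spread of the replicates (exact permutation p = 0.667). With read-weighted levels the difference was −2.99 points and against windows of over 500 listed CpGs alone it was −2.88 points, each with p = 0.333 in the exact permutation test, the smallest possible. Without shScr oxBS replicate 2 it was −0.822 points.

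**Figure D3:**
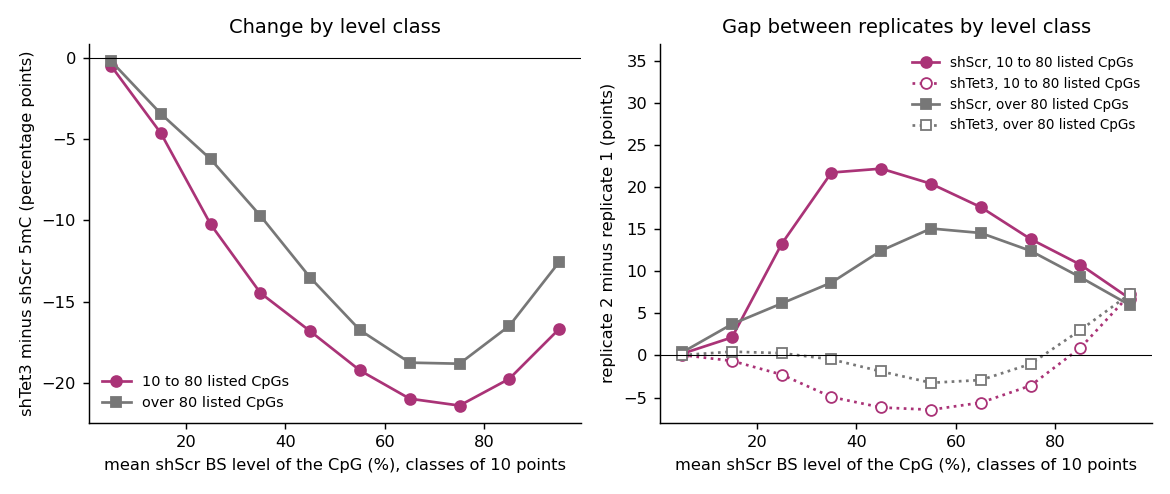
Left, shTet3 minus shScr 5mC (oxBS, percentage points) by the level of the CpG in the shScr BS libraries, for sparse and denser megabases. Right, replicate 2 minus replicate 1 within each shRNA. At 60 to 70% the change is −21.0 points in sparse and −18.7 in denser megabases, and at 40 to 50% the shScr replicates differ by more in sparse megabases (36.9% and 59.1%) than in denser ones (39.9% and 52.3%).

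Within level classes, the CpGs under 10% in shScr, 21.5% of those in sparse megabases and 56.2% of those in denser ones, changed by −0.498 and −0.207 points. CpGs over 40% made up 65.8% of the sparse and 35.2% of the denser CpGs and changed by −19.6 and −16.5 points. In shScr, the sparse CpGs over 40% read 55.9% and 72.7%, below the 67.5% and 78.7% of the denser ones, and CpGs over 80% made up a smaller share there (11.4% against 14.6%). Level classes were set with BS libraries that share their DNA with the oxBS libraries compared, so the 2 are not independent.

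Most sparse megabases were lower in shTet3, but no single one passed the test. The change of a window had a median of −16.4 points and lay between −24.0 and −5.31 points from the 5th to the 95th percentile. The mean was lower in shTet3 in 642 of 643 windows and higher in 1 (0.156%), against 0.0834% of all autosomal windows, and the shTet3 values both lay below the shScr values in 555 (86.3%), against 95.3% of all autosomal windows. In BS, 643 of 645 windows were lower and 2 higher, against 0.125% of all, and 560 did not overlap (86.8%), against 95% of all. Fitted with limma over 2399 autosomal windows, 0 windows had an adjusted p below 0.05, and the smallest adjusted p was 0.103. At an unadjusted p below 0.05, limma gave 433 sparse megabases (67.34%), all lower, where 36.1% of all windows tested were lower. The BS fit gave 0 windows with an adjusted p below 0.05 and 417 at an unadjusted p below 0.05, against 37% of all. These contrasts depended on the variance model, and the SD of shScr in oxBS was 9.24 points in sparse and 3.39 points in denser megabases. With a variance trend, limma gave 386 sparse megabases in oxBS (60.03%) at an unadjusted p below 0.05, against 44.89% of all. In BS it gave 385 (59.69%), against 49.25%. Without shScr oxBS replicate 2, the mean change in sparse megabases differed from that in denser ones by −3.74 points. Without shScr oxBS replicate 1, limma called 611 of 646 sparse megabases (94.6%) lower at an adjusted p below 0.05, against 95.2% of all autosomal windows.

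Single CpGs were tested by a logistic regression of counts, and hypo-DMPs had a q value below 0.01 and a difference over 10 points. In sparse megabases 6055 of 21913 CpGs (27.6%) were hypo-DMPs, against 13.9% of all CpGs tested, with a median difference of −28.4 points. In BS 5947 CpGs (27.9%) were hypo-DMPs, against 13.8% of all. At least 1 hypo-DMP of oxBS lay in 635 of the 648 windows (98.0%), against 99.1% of all autosomal windows, and at least 3 in 573 (88.4%), against 95.9% of all. The share differed with level, from 0.412% of CpGs under 10% in shScr to 40.3% of those over 40%, against 0.179% and 36.2% in denser megabases. Without shScr oxBS replicate 2 the count was 2030 (8.99%), against 5.79% of all CpGs, and without shTet3 oxBS replicate 2 it was 3259 (14.7%), against 9.93%. The test counts calls as independent and leaves out the spread between replicates. A per-CpG F test that estimates this spread from the 4 libraries called 0 CpGs, with 859 at an unadjusted p below 0.05. With so few libraries that test can hardly reach a q below 0.01 at any CpG, so no conclusion is drawn from its 0.

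Only 6 CpGs were hyper-DMPs (0.0274%), against 0.0814% of all CpGs tested. In 5 of the 6 the shTet3 values both lay above the shScr values in oxBS, as in 375 of the 539 hyper-DMPs among all CpGs. The call uses these same values. The 6 CpGs were named after their values were seen. At chr13:92901471, in the promoter of Rasgrf2, a guanine nucleotide exchange factor for Ras, oxBS read 0% and 6.25% in shScr and 10.6% and 22.6% in shTet3, and all 4 BS libraries read 0%. At chr15:50720604, in the promoter of Trps1, a zinc finger transcription factor gene, oxBS read 6.25% and 0% in shScr and 9.80% and 26.9% in shTet3. BS there read 17.1% and 6.67% in shScr against 17.4% and 20% in shTet3. The others lay in Clec4a2 (chr6:123088299, a C-type lectin receptor gene) and outside protein-coding genes at chr1:81440895, chr10:129907572 and chr13:11641763. At chr1:81440895 BS went the other way, with 48.6% and 50% in shScr against 18.2% and 25% in shTet3. The 50% of shScr BS replicate 2 rests on 8 calls, below the minimum of 10. Without shScr oxBS replicate 2 the number of hyper-DMPs was 133 (0.589%), against 0.435% of all CpGs.

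Among the sparse megabases with at least 10 tested CpGs, most of those with the largest falls lay together. Of the 5 with the largest absolute fall, 3 were in a single run of 11 adjacent windows on chromosome 14 (chr14:88000000-98999999), and 4 of the 5 largest relative falls were there too. The run holds Pcdh20 and Pcdh9, genes of protocadherins that act in cell adhesion between neurons, Klhl1, a kelch-like gene expressed in neurons, and Dach1, a transcription factor gene of eye and limb development, besides the predicted genes Gm10119, Gm10110 and 4921530L21Rik. Over its 353 tested CpGs, 5mC was 36.97% and 54.0% in shScr and 27.8% and 21.7% in shTet3, a change of −20.7 points or −45.6%. Hypo-DMPs made up 185 of the 353 (52.4%), against 27.6% of the tested CpGs of sparse megabases and 13.9% of all. As the windows were picked by their falls, these values are a description.

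**Figure D4:**
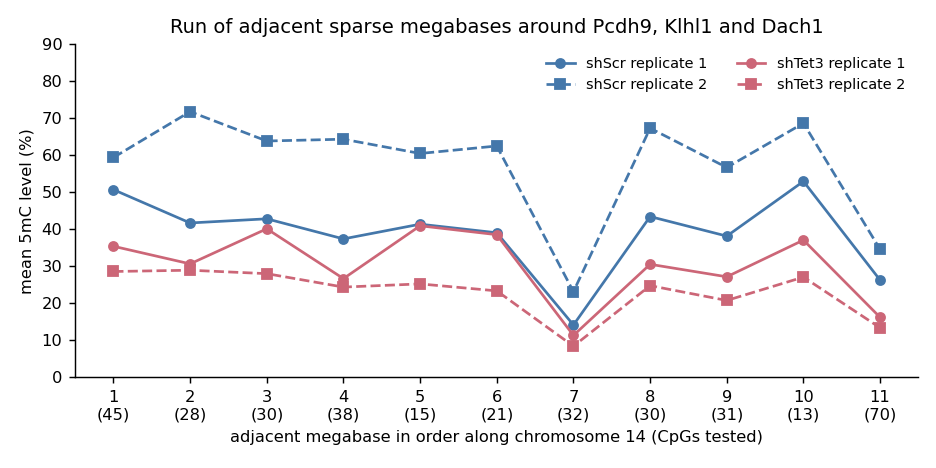
Mean 5mC level (oxBS, %) of the 11 adjacent sparse megabases of chromosome 14 in each library, in their order along the chromosome, with the number of CpGs tested in brackets. shScr replicate 2 is the highest and shTet3 replicate 2 the lowest in every window. shTet3 replicate 1 lies close under shScr replicate 1 in the fifth and sixth windows (40.9% against 41.3% and 38.5% against 39.0%).

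A window with 10 to 12 listed CpGs, too few of them tested to be ranked, changed by −30.5 points. Among ranked windows the largest absolute fall was in chr14:97000000-97999999, which rested on 13 CpGs and held no protein-coding gene. It read 52.9% and 68.6% in shScr and 37.1% and 27.1% in shTet3, a change of −28.7 points with an SE of 5.95 points and an adjusted p of 0.103 in limma. In BS it changed by −27.7 points. The second largest, chr7:18000000-18999999, read 64.6% and 79.9% in shScr and 39.7% and 48.1% in shTet3 over 36 CpGs. It holds part of the Ceacam and Psg gene cluster, which encodes cell adhesion and pregnancy-specific glycoproteins, and its change was −28.3 points in oxBS but −19.0 in BS. Next came chr14:95000000-95999999 at −27.7 points, chr13:116000000-116999999 at −27.5 points and chr14:89000000-89999999 at −26.9 points. In all 5 windows the groups did not overlap, as in 86.3% of sparse megabases and 95.3% of all autosomal windows.

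The largest relative fall among windows with at least 20% 5mC in shScr was in chr14:98000000-98999999, the window of Dach1. It read 26.2% and 34.5% in shScr and 16.2% and 13.4% in shTet3 over 70 CpGs, a change of −51.4%. Of the 70, 31 were hypo-DMPs, where 27.6% of the tested CpGs of sparse megabases and 13.9% of all were. The other 4 windows changed by −50.1% to −48.1%. The only one off chromosome 14 was chr1:45000000-45999999, with Col3a1 and Col5a2, which encode fibrillar collagens, Slc40a1, the iron exporter ferroportin, and Wdr75. It read 21.8% and 32.7% in shScr against 16.5% and 11.7% in shTet3.

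The smallest falls were in windows that held little 5mC to begin with. Only chr12:23000000-23999999 had a higher mean in shTet3, and there the 16 tested CpGs are those of the stretch Low 1. Its change was 1.75 points with limma's adjusted p at 0.619, and the shTet3 values both lay above the shScr values, as in 0.0417% of all autosomal windows. In BS its mean was also higher in shTet3, by 1.81 points. The window chr7:94000000-94999999, which holds Tyr, the tyrosinase gene, with Grm5, Nox4, Vmn2r78 and Vmn2r79, read 3.57% and 5.48% in shScr and 3.94% and 4.12% in shTet3, and 21 of its 24 tested CpGs were promoter CpGs. chr8:20000000-20999999 had the second lowest level, at 0.882% and 4.51% in shScr and 1.40% and 2.86% in shTet3. Coverage in its stretch Low 2 ran from 82 to 697, far above the median of sparse megabases. Windows of Vegfc (chr8:55000000-55999999), Slitrk5 (chr14:112000000-112999999) and Ptprd (chr4:77000000-77999999) changed by −1.58, −1.59 and −1.89 points from a shScr mean of 5.13%, 8.86% and 7.08%, and the groups overlapped in the first 2.

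The longest runs of sparse megabases shared the fall. The longest, 12 windows on chromosome 15 (chr15:13000000-24999999), holds the cadherin genes Cdh6, Cdh9, Cdh10, Cdh12 and Cdh18 and the acyl-CoA thioesterase gene Acot10. It read 47.5% and 63.4% in shScr and 39.2% and 34.6% in shTet3, a change of −18.6 points or −33.5%. The 10 windows of chr16:66000000-75999999, with Cadm2, Robo1 and Robo2, which encode adhesion and guidance receptors of neurons, changed by −10.8 points. chr8:50000000-58999999 changed by −12.02 points, chr3:42000000-49999999 with Pcdh10 and Pcdh18 by −14.8 points, and chr1:100000000-106999999 with Cntnap5b and Cdh20 by −19.9 points. In each of these 6 runs the shTet3 values both lay below the shScr values, and the exact permutation p was 0.333, the smallest possible. Both also lay below in 95.3% of all single autosomal windows.

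Most genes known as long genes of neuronal adhesion and synapses overlapped a sparse megabase. Of 111 symbols listed, 104 matched an autosomal gene, and 79 of these (76.0%) overlapped a sparse megabase, against 10.3% of all autosomal protein-coding genes. Any overlap was counted, and a long gene meets more windows. The part of gene length in this share was not tested. Here and for the lists below, only CpGs inside sparse megabases were used, in the gene or 1 kb before it. With 5 or more such CpGs tested, 66 genes could be read, and 65 had a lower mean in shTet3. The mean was lower in 88.6% of the 14056 autosomal protein-coding genes with as many tested CpGs, counted there in any window. Parts of genes are thus set against whole genes. The groups did not overlap and shTet3 was lower in 53 of the 66 (80.3%), against 61.2% of all such genes. Their change had a median of −11.1 points, from −32.9 to 1.40 points. The 97 sparse megabases of these genes had a median change of −14.4 points, against −16.4 points for all 643, and 313 of the 1745 CpGs in the genes (17.9%) were hypo-DMPs, against 27.6% of the CpGs of sparse megabases and 13.9% of all.

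Among them Pcdh9 read 46.6% and 71.9% in shScr and 27.8% and 24.9% in shTet3 over 7 CpGs, all hypo-DMPs. Lsamp, which encodes a limbic adhesion protein of the immunoglobulin family, read 80.2% and 88.7% in shScr and 57.3% and 58.1% in shTet3 over 6 CpGs. Ctnna3, an alpha-catenin gene, read 55.6% and 68.0% in shScr and 37.4% and 33.6% in shTet3 over 25 CpGs, with 16 hypo-DMPs. These 3 had the largest falls of the list, and their groups did not overlap. Magi2, a scaffold gene of synapses, had the second most CpGs, 75, and read 51.5% and 59.5% in shScr and 37.7% and 39.5% in shTet3. Astn2, an astrotactin gene of neuronal migration, had 83 CpGs and a change of −9.76 points.

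Genes read mainly through their promoters mostly had a low level, with exceptions. In 24 of the 66 genes over 50% of the tested CpGs lay in promoters, and 19 of these had a mean below 25% in shScr, with a median of 17.9% and a range from 5.39 to 73.5%. The highest was Flrt2, a leucine-rich adhesion receptor gene with all 5 CpGs in promoters, at 62.2% and 84.8% in shScr against 46.6% and 71.2% in shTet3, so that the groups overlapped. Pcdh20, with 11 of 16 CpGs in promoters, read 45.1% and 34.6% in shScr and 26.9% and 19.1% in shTet3. Nkain2, which encodes a protein that interacts with the sodium pump, had 31 of 43 CpGs in promoters and read 12.8% and 14.8% in shScr and 10.6% and 4.70% in shTet3. Ptprd, a receptor tyrosine phosphatase gene of synapse formation, had 55 of 61 in promoters and read 7.75% and 9.80% in shScr against 7.85% and 6.64% in shTet3, so that the groups overlapped. Kcnh7, a potassium channel gene, was the only one with a higher mean in shTet3. All 7 of its CpGs were promoter CpGs, with 8.72% and 6.79% in shScr against 9.26% and 9.05% in shTet3, whereas BS changed by −4.04 points.

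**Figure D5:**
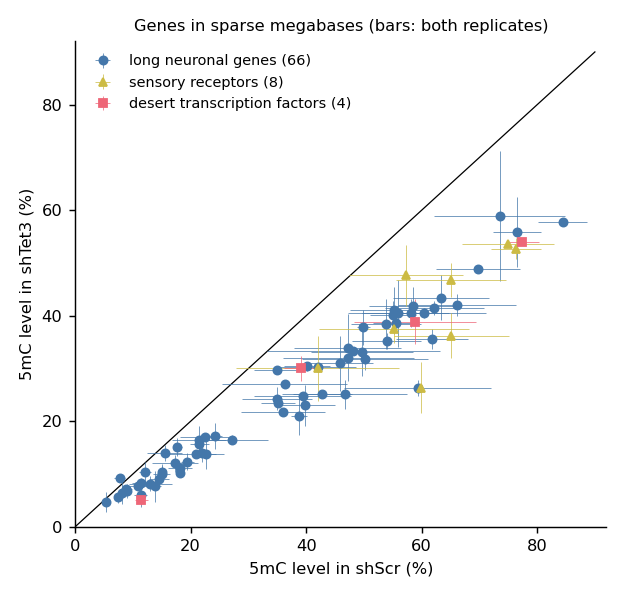
Mean 5mC level (oxBS, %) of genes in sparse megabases in shScr (horizontal) and shTet3 (vertical), for the genes with 5 or more tested CpGs of 3 lists. Points are means of 2 replicates, bars reach both replicates, and the line marks equal levels. All genes but 1 (Kcnh7) lie below the line.

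Sensory receptor genes were common in sparse megabases but hardly read. Of 1482 autosomal genes of odorant, vomeronasal, trace amine and taste receptors, 735 (49.6%) overlapped one, and only 8 had 5 or more tested CpGs, all of them type 2 vomeronasal receptors. All 8 had a lower mean in shTet3, against 88.6% of all autosomal protein-coding genes with as many tested CpGs. In 6 of the 8 (75%) the groups did not overlap, against 61.2% of all such genes. Vmn2r75 read 59.5% and 60.3% in shScr and 31.3% and 21.5% in shTet3, and all 6 of its CpGs were hypo-DMPs. Vmn2r59 read 47.5% and 67.2% in shScr against 53.5% and 41.9% in shTet3, so that its groups overlapped. Receptor genes of a cluster resemble each other in sequence, and how reads that fit several places were treated is not given in the sources used here. The 34 sparse megabases of these genes had a median change of −17.7 points.

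Transcription factor genes said to lie in gene deserts were not often in sparse megabases. Of 64 matched to an autosomal gene, 7 (10.9%) overlapped one, near the 10.3% of all protein-coding genes, and 4 could be read. Sox6, a factor of neural and muscle development, read 74.5% and 80.4% in shScr and 54.1% and 53.9% in shTet3 over 23 CpGs, 9 of them hypo-DMPs. Lmo3, a LIM-only factor gene, read 48.3% and 69.3% in shScr and 43.2% and 34.6% in shTet3. Rorb, a nuclear receptor gene of the cortex and retina, read 36.2% and 42.1% in shScr and 32.4% and 27.7% in shTet3, and Dach1 read 10.3% and 12.6% in shScr and 5.90% and 4.16% in shTet3. In these 4 genes the groups did not overlap, as in 61.2% of all autosomal protein-coding genes with 5 or more tested CpGs.

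BS minus oxBS, the estimate of 5hmC, was near 0 in sparse megabases. In shScr the 2 replicates gave 0.572 and −0.179 points over 20767 CpGs, a mean of 0.196 (two-sided exact permutation p = 1). In shTet3 they gave 0.291 and 0.191 points, a mean of 0.241 (exact permutation p = 0.667). Read-weighted levels turned the shScr value to −0.985 points. Over the 19515 CpGs covered in all 8 libraries, the estimate was 0.571 and −0.191 points in shScr and 0.258 and 0.170 points in shTet3, and its change of 0.0238 points was within the spread of the replicates (exact permutation p = 1). The libraries compared here came from the same DNA, and with the replicate number as a block limma called 0 windows in either shRNA.

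Single windows showed BS both above and below oxBS in shScr by similar amounts. The 5th and 95th percentiles of the difference over 643 windows were −4.24 and 4.54 points. The highest was 10.2 points in chr16:69000000-69999999, the window of Speer2, where oxBS read 41.6% and 65.1% and BS 53.5% and 73.6% over 24 CpGs. The lowest was −11.1 points in chr6:103000000-103999999, the window of Chl1, a neural adhesion gene, where oxBS read 51.7% and 68.7% and BS 39.8% and 58.5% over 17 CpGs. With the 2 libraries of a replicate paired as a block, limma gave 49 sparse megabases with higher BS and 37 with lower BS in shScr at an unadjusted p below 0.05, against 2.96% and 2.13% of all autosomal windows. In shTet3 the paired fit gave 57 with higher and 33 with lower BS, against 3.21% and 1.71% of all. No adjusted p was below 0.05 in either shRNA, and the unpaired limma fit of shScr gave 0 windows at an unadjusted p below 0.05. Both BS replicates lay above both oxBS replicates in 4 windows, those of Fat3 (chr9:16000000-16999999), Arpp21 (chr9:112000000-112999999), Inhba (chr13:16000000-16999999) and Fmn2 with several odorant receptor genes (chr1:176000000-176999999), against 1.08% of all autosomal windows. Both lay below in 2, those of Thsd7b (chr1:131000000-131999999) and Nkain2 with Trdn (chr10:32000000-32999999), against 0.209% of all. In shTet3, where the replicates were closer, both BS replicates exceeded both oxBS replicates in 64 of 647 windows (9.89%, against 15.2% of all autosomal windows). Both BS replicates lay below both oxBS replicates in 56 (8.66%, against 5.41% of all). At an unadjusted p below 0.05, the unpaired limma fit gave 14 sparse megabases with higher BS, against 0.708% of all windows tested, and 5 with lower BS, against 0.292%.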

How the data were processed

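Tet3 KD and control NPCs were measured by oxidative reduced representation bisulphite sequencing of MspI-cut DNA, and all 8 libraries were used. The authors trimmed reads with Trim Galore and aligned them to mm9 with Bismark, and the deposited methylKit tables give, for each CpG, the coverage as a count of reads, with no normalization and no pooling. The deposited percent of C calls per CpG is the methylation level. Versions of these tools, and how reads that fit several places were treated, are not given in the sources used here.

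Levels were averaged over CpGs with 10 or more calls in each library of a comparison. Group means were compared by two-sided exact permutation tests, the relative change of sparse against denser megabases on the log2 ratio of their levels in each library. Window means (at least 5 CpGs) were fitted with limma 3.58.1 in R 4.3.3 over all autosomal windows, and p-values were adjusted by Benjamini-Hochberg. DMPs came from a logistic likelihood ratio test on counts over all CpGs, with q below 0.01 and a difference over 10 points. Python 3.11.15, numpy 2.4.6, pandas 2.3.3, scipy 1.17.1 and matplotlib 3.10.9 were used. Both tests were checked on simulated data. The simulated windows varied far less between replicates than shScr did here, and the simulated counts held no spread between replicates. The check therefore does not cover the gap between the shScr replicates. No molecular identifiers are described, so tests on counts cover counting error only.

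Windows were named among those with at least 10 tested CpGs: the 5 largest and the 5 smallest falls, the 5 largest relative falls among windows with at least 20% in shScr, the 5 lowest shScr levels, the 3 largest BS minus oxBS differences in each direction, and the longest runs. Genes were those in these windows and 3 lists, of sensory receptors, long neuronal genes and transcription factors of gene deserts. The members and lists were chosen with earlier results of these data known. Sequences were read from the mm9 genome, and 1 of the stretches chosen was left out because it overlaps an untranslated region.

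The BS and the oxBS library of a replicate share an shRNA and a number in the labels and were taken as 2 parts of the same DNA. Their deviations from the group means correlated at 0.508 in shScr and 0.246 in shTet3 over all CpGs. Alternatives changed the coverage minimum, read weighting, grid, window classes, promoters, variance model, pairing and libraries left out.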

Additional observations from a re-analysis of the deposited data

How the results depend on the processing

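The fall of mean level in sparse megabases kept its direction under all alternatives run, in oxBS and BS. With libraries left out in turn the oxBS change ranged from −21.0 to −8.04 points and the BS change from −20.5 to −8.30 points. The differences from denser megabases ranged from −12.1 to −3.74 points (absolute), −11.7 to −3.81 (relative) and −3.68 to −0.822 points (matched level). BS minus oxBS in shScr turned negative with read-weighted levels (−0.985 points) and ranged from −0.134 points without replicate 1 to 0.549 points without replicate 2; in shTet3 it ranged from 0.168 to 0.259 points. The number of sparse megabases called lower by limma, 0 in oxBS and in BS, was 21 and 42 with a variance trend. With libraries left out it ranged from 0 to 611 in oxBS and from 0 to 587 in BS, the highest being without shScr replicate 1, where the lone shScr replicate is assumed to vary like shTet3. Hypo-DMPs (6055) ranged from 2030 without shScr oxBS replicate 2 to 8244 without shScr oxBS replicate 1, and hyper-DMPs (6) from 7 to 133, the highest being without shScr oxBS replicate 2 (27 without shTet3 oxBS replicate 2 and 12 without shScr oxBS replicate 1). The F test with an estimated spread gave 0 hypo-DMPs and 0 hyper-DMPs, with 859 hypo at an unadjusted p below 0.05. With 4 libraries it can hardly call any CpG.

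shScr and shTet3 replicates share only a number. Their deviations correlated at −0.0361 over all CpGs and −0.176 over 643 sparse window means. With the replicate number as a block, limma called 328 sparse megabases lower in oxBS (51.0%, against 15.4% of all autosomal windows) and 330 in BS (51.2%, against 15.8%), and hypo-DMPs were 6391 (29.2%, against 14.5% of all CpGs). The pairs changed by −6.55 and −22.6 points in oxBS and by −6.69 and −22.1 points in BS. The crossed pairing, chosen after seeing the data, gave 493 sparse megabases in oxBS (76.7%, against 28.4% of all), 5732 hypo-DMPs (26.2%, against 13.96% of all) and 4 hyper-DMPs (0.0183%, against 0.0642%). With 2 against 2 libraries the exact permutation test cannot go below 0.33, the shScr replicates were 13.1 points apart, and coverage in sparse megabases limits single CpGs.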
